A study of Mus musculus with 23 samples.

Results

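The 39 genes described here encode the contractile machinery of skeletal muscle. They comprise 13 genes of the thick filament, 9 of the thin filament, 8 of the Z-disc and its cytoskeleton, 6 of calcium handling and excitation, and 3 of energy supply. They were picked by symbol from an array that names 35019 gene symbols, with 1 probe per gene, the one of highest mean log2 signal over the 23 arrays. A gene was kept for testing where its probe stood well above background on 7 or more of the 23 arrays, which held for 28388 genes and for all 39. The probes of 36 of the genes reached that level on all 23 arrays, that of Myh3 on 22, that of Myl2 on 14 and that of Tnnc1 on 12.

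Messenger RNA was measured in the circumvallate papilla, a big papilla far back on the tongue that is lined with taste buds, of male C57Bl6/j mice, on 1-colour Agilent arrays with labelled RNA made from 25 ng of total RNA. Mice of the 7 Lean samples ate a chow with 3% fat (w/w), and mice of the 8 DIO samples an obesogenic high fat diet rich in saturated fat. The labels do not define the 8 DIO-R samples, which are read here as DIO mice given 60% of the energy taken freely. The sheet of tongue epithelium was loosened with enzymes from the connective tissue under it before the papilla was cut out, so the arrays hold RNA of whatever was cut out together. Whether every sample is from its own animal is not given in the labels; the p-values then measure only the spread between these samples, which may in part be technical. Of the defining genes of the labelled tissue, 14 of 14 keratinocyte genes and 14 of 15 taste cell genes were well above background on every array, as were 65.6% of all gene symbols. The arrays lie on 3 slides, and each slide holds every group.

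In striated muscle, myosin heavy chains of the thick filament pull on the actin of the thin filament, and troponin on the thin filament lets them do so once calcium leaves the sarcoplasmic reticulum. Fast and slow fibres use different genes for most of these parts, so that Myh4 and Tnnc2 mark fast fibres and Myh7 and Tnnc1 slow ones. The mouse tongue is built mainly of fast fibres, and these run up beneath the epithelium that carries the papillae.

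Values are log2 signals set relative to the 75th percentile of the same array, so that 0 is the signal of that percentile. Levels of different genes are not compared with each other, since each rests on its own probe. Over the 23 arrays the contractile genes varied far more than most genes, with a median SD of 0.80 against 0.31 for all genes kept. A score was formed for each array as the mean over the 39 genes of the log2 value minus the gene's own mean. The score is used to describe the arrays and was not tested.

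The contractile genes went up and down together from array to array. The median Pearson correlation over the 741 pairs of genes was 0.92 (23 arrays, which share their scaling). Each gene was also set against the mean of the other genes, and 31 of the 39 reached a correlation of 0.9 or more. Tnnc2, the fast troponin that binds calcium, and Acta1, the skeletal muscle actin, led that order with 0.99 each. The other 8 genes were Tnnt1 (0.83), Myh2 (0.77), Tnni1 (0.45), Tnnc1 (0.32), Myl2 (0.27), Myl3 (0.20), Myh7 (-0.47) and Myh3 (-0.52). All 6 slow fibre genes are among these 8. These correlations run over all 23 arrays, differences between groups included. Inside the groups Myl3 had a correlation with the score of the other genes of 0.68 in Lean, -0.23 in DIO and 0.51 in DIO-R. Myl2 and Tnnc1 were not well above background on every array, and a low correlation can also come from a dim probe. The probes of Myh7, Tnni1 and Myh3 were dim too, with mean log2 signals before scaling of 5.65, 5.47 and 5.51. Those of the fast fibre genes were at 7.71 (Mylpf) or more, and among the slow fibre genes only Tnnt1 (9.76) and Myl3 (10.29) were as bright. The part of signal level in the contrast of slow and fast genes was not tested.

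The upstream windows of 4 genes are shown: Tnnc2 and Acta1, which led that order, and Myl3 and Myh7, which were picked by name from near its other end. The window of Myh3, the lowest gene of the order (-0.52), held a TATAAA and is not printed. RefSeq's promoter table (build GRCm38.p6) held 31 of the 39 genes, and the 250 bases before the annotated start of the first listed transcript are printed, in the direction of the gene. The windows are chr2:164779735-164779984 on the minus strand for Tnnc2, chr8:123894776-123895025 on the minus strand for Acta1, chr9:110763428-110763677 on the plus strand for Myl3 and chr14:54994627-54994876 on the minus strand for Myh7. Capitals mark matches to an E-box with the letters CAGCTG, to TATAAA, to the MEF2 site or to the CArG box, each searched on both strands.
Tnnc2: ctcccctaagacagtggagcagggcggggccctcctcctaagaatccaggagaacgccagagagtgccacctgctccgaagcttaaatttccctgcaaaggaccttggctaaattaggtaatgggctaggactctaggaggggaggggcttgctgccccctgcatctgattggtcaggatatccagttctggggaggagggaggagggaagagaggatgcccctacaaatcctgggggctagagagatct
Acta1: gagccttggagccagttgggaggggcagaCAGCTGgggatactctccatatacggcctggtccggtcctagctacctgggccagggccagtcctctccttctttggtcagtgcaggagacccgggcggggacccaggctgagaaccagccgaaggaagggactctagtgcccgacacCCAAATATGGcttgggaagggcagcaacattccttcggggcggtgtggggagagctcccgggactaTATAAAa
Myl3: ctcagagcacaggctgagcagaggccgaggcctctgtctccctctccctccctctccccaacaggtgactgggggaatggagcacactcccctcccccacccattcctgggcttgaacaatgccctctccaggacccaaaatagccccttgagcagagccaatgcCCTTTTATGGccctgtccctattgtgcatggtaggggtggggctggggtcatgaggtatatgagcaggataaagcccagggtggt
Myh7: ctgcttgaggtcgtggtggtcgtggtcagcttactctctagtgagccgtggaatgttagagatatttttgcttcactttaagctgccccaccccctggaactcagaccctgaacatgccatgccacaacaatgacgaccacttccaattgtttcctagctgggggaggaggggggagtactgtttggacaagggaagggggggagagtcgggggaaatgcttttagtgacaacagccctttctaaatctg

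Acta1 held a CAGCTG E-box, a CArG box and a TATAAA, and Myl3 a CArG box. None of the 4 motifs was found in these letters of Tnnc2 and Myh7. Over the 31 genes with a window, 13 (41.9%) held CAGCTG, among them Ckm, Des, Mylpf and Myh4, against 12.8% of all 27025 genes with a window of the same length. TATAAA was found in 7 (22.6%) against 13% of all genes, the MEF2 site in 6 (19.4%) against 3.01% and the CArG box in 4 (12.9%) against 1.4%. Matches to different motifs overlapped in 3 of the 31 genes. E-boxes are bound by the MyoD family, MEF2 sites by MEF2 factors and CArG boxes by serum response factor, but a match is a description of the letters and not evidence of binding.

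The score of the 39 genes overlapped between the diet groups. It ran from -0.96 (Lean 3) through a median of 0.31 to 0.95 (Lean 7) in Lean, from -0.46 (DIO 10) through 0.35 to 0.72 (DIO 1) in DIO, and from -1.69 (DIO-R 5) through -0.22 to 0.53 (DIO-R 3) in DIO-R. The lowest 2 arrays of all, DIO-R 5 and DIO-R 10, are both DIO-R. The score of the 13 fast fibre genes was spread more widely, from -1.05 (median 0.43) upwards in Lean, -0.59 to 0.97 in DIO and -2.09 to 0.64 in DIO-R. The score of the 6 slow fibre genes was narrower, from -0.42 to 0.26, -0.48 to 0.27 and -0.68 to 0.95, and its correlation with the fast score over the 23 arrays was 0.59. Myl3, with an SD of 1.42 over the arrays against 0.19 to 0.74 for the other 5 slow fibre genes, weighs most in it. With Myl3 the mean slow score was -0.14 in Lean, 0.04 in DIO and 0.08 in DIO-R, and without Myl3 it was 0.14, -0.14 and 0.02, so the order of Lean and DIO turned; the correlation with the fast score was again 0.59.

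**Figure D1:**
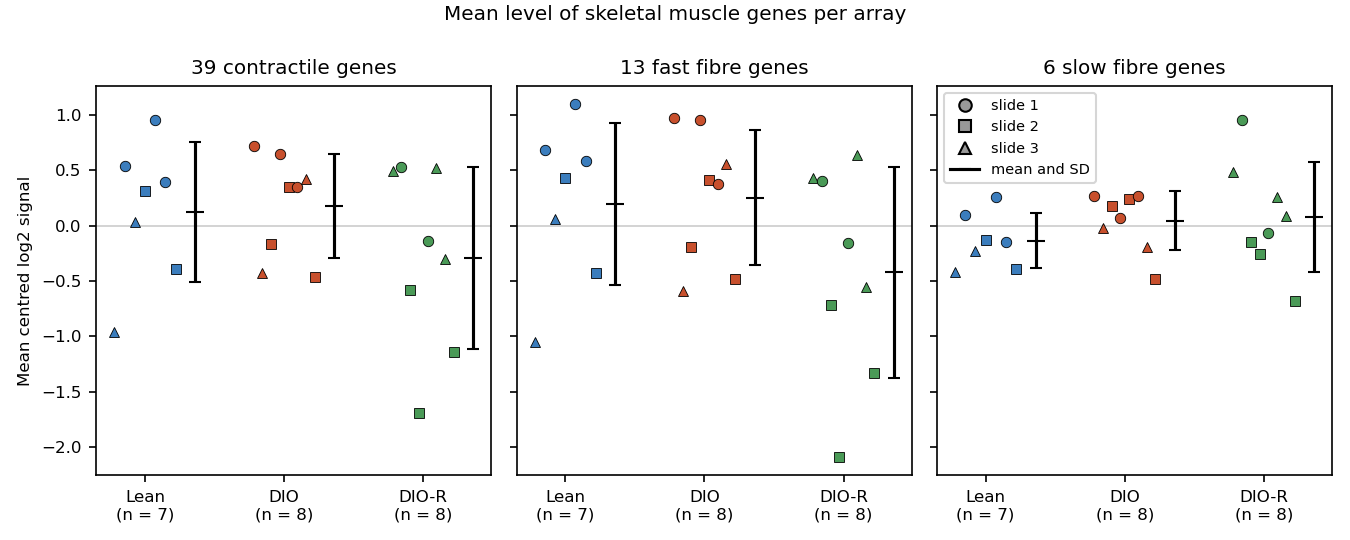
Mean centred log2 signal of the 39 contractile genes, the 13 fast fibre genes and the 6 slow fibre genes on each array, by diet group; point shapes give the slide and the bars the mean and SD of a group. The 3 groups overlap in every panel, and DIO-R 5 is the lowest array for all 39 genes (-1.69) and for the fast genes (-2.09).

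**Figure D2:**
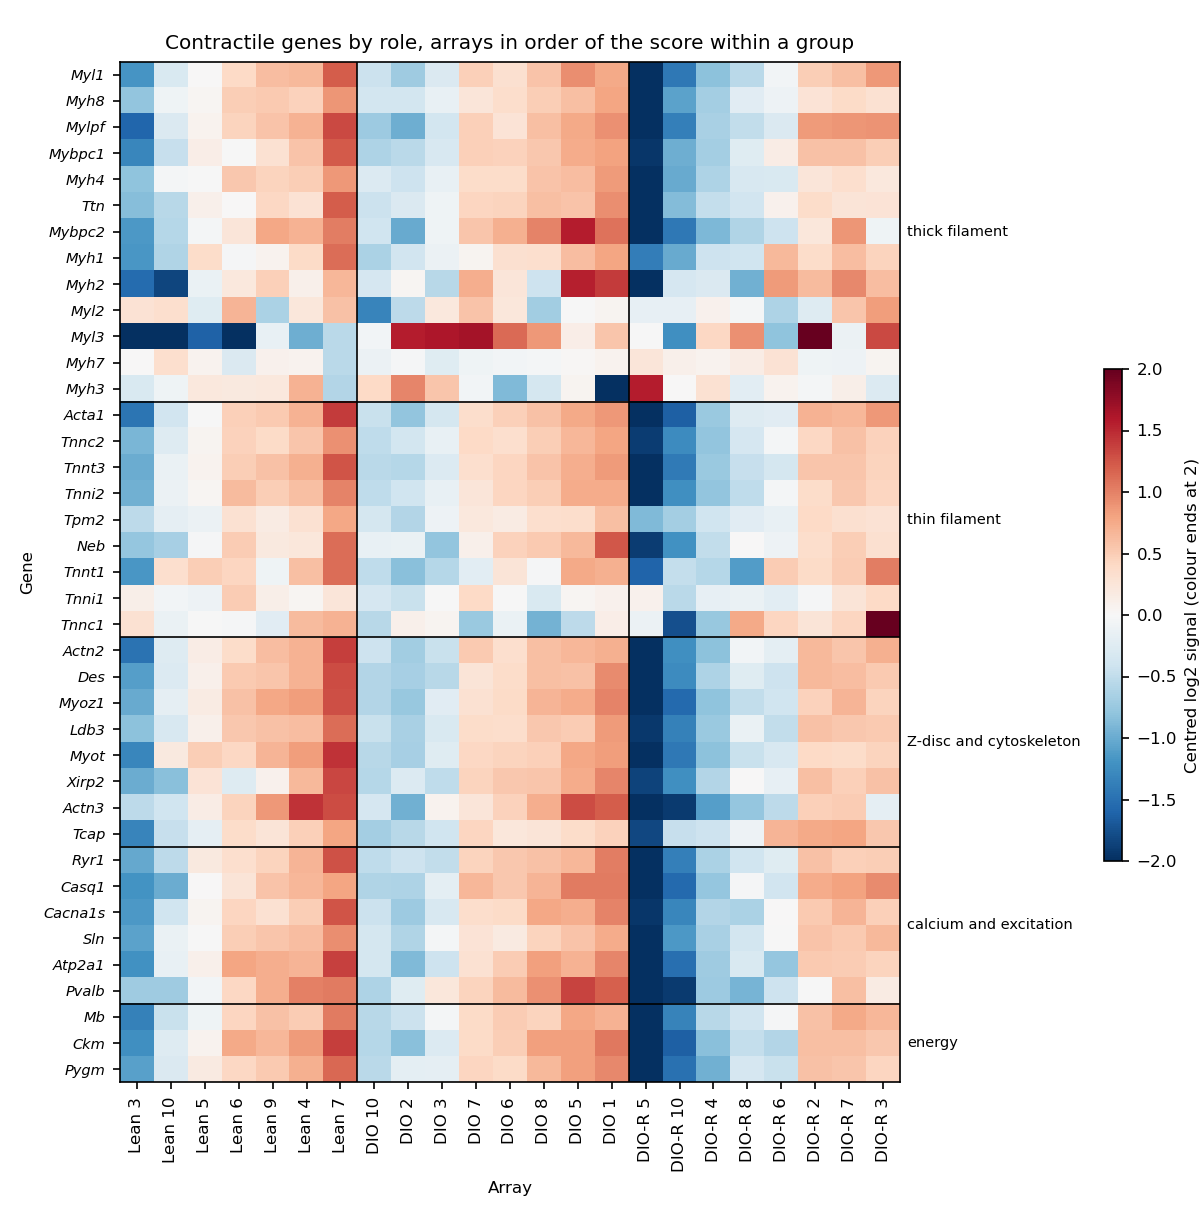
Log2 signal of each contractile gene minus its own mean, with genes in rows by role and the 23 arrays in columns, ordered within a group by the score; blue is below and red above the gene's mean, and colours end at 2. Most rows change colour together from left to right within a group. Over all 23 arrays Myl3, Myl2, Myh7, Myh3, Tnni1 and Tnnc1 followed the other genes least, with correlations below 0.5.

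DIO against Lean asks what differed on the high fat diet. No contractile gene passed an adjusted p under 0.05, where 0.00352% of all genes kept (1 gene) did, and 1 of the 39 was under an unadjusted p of 0.05, against 8.94% of all genes. The median log2 difference of the 39 was -0.02, with 19 higher and 20 lower in DIO, beside -0.04 over all genes kept. The 13 fast fibre genes had a median of 0.00 (7 higher, 6 lower) and the 6 slow fibre genes -0.25 (1 higher, 5 lower). Only Myl3 had DIO and Lean samples that did not overlap, as 0.12% of all genes did.

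DIO-R against DIO asks what differed when energy intake was cut. Most contractile genes were lower in DIO-R by up to 2.28-fold, but none passed the test: 0 of 39 had an adjusted p under 0.05, where 0.0599% of all genes (17) did, and 4 of 39 were under an unadjusted p of 0.05, against 9.72% of all genes. The median difference was -0.55, with 34 lower and 5 higher in DIO-R, beside 0.01 over all genes. The 5 higher were Myh3, Myh7, Myl2, Tnni1 and Tnnc1, with differences from 0.03 to 0.49. The groups overlapped for every contractile gene, and 0.0881% of all genes had groups that did not. Within slides the median difference was -0.45 on slide 1, -1.19 on slide 2 and 0.25 on slide 3, so its sign was not the same on all slides. Without DIO-R 5 it was -0.33.

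All 13 fast fibre genes were lower in DIO-R than in DIO, with a median of -0.63 and differences from -1.19 (Pvalb) to -0.26 (Myh1). The 6 slow fibre genes had a median of 0.09, with 4 higher and 2 lower. The difference between the lists was not tested. On slide 3 the median of the fast fibre genes was 0.22, against -0.59 on slide 1 and -1.28 on slide 2, and without DIO-R 5 it was -0.39 over all slides. By role, the median was -0.45 for the thick filament (10 of 13 lower), -0.52 for the thin filament (7 of 9), -0.52 for the Z-disc and cytoskeleton (8 of 8), -0.64 for calcium handling and excitation (6 of 6) and -0.75 for energy supply (3 of 3).

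Marker lists of other cells differed between DIO-R and DIO as well, with no gene past the threshold. All 7 von Ebner gland genes kept of 11 were lower in DIO-R (median -0.74; 2 of the 11 were well above background on 0 arrays), with scores from -2.66 to 1.34 in DIO and -3.19 to 0.50 in DIO-R. Smooth muscle genes were lower in 9 of 10 (median -0.21), with scores from -0.55 to 0.75 and -0.72 to 0.14. Fibroblast genes were lower in 14 of 14 and endothelium genes in 8 of 9, each with a median of -0.21. Keratinocyte genes were higher in 14 of 14 (median 0.32), with scores from -0.59 to 0.37 and -0.16 to 0.41, and taste cell genes in 12 of 15 (median 0.16). In DIO-R against Lean 7 of 7 gland genes (median -0.97) and 7 of 10 smooth muscle genes (-0.36) were lower. So were 7 of 9 endothelium genes (-0.11), while 9 of 14 fibroblast genes were higher (0.15). Keratinocyte genes were higher than in Lean in 9 of 14 (median 0.02) and taste cell genes in 6 of 15 (median -0.03). The part of these lists in the differences of the contractile genes was not tested.

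DIO-R against Lean shares the DIO-R samples with that comparison. Here too 0 of 39 passed, where 0.127% of all genes (36) did, and 5 of 39 were under an unadjusted p of 0.05, against 8.95% of all genes. The median difference was -0.52, with 34 lower and 5 higher in DIO-R, beside -0.02 over all genes. The fast fibre genes had a median of -0.65 (12 of 13 lower) and the slow fibre genes -0.08 (4 of 6 lower). No contractile gene had groups that did not overlap, and 0.303% of all genes did. The median was -0.46 on slide 1, -1.34 on slide 2 and 0.68 on slide 3, and without DIO-R 5 it was -0.26, with -0.42 for the fast fibre genes.

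**Figure D3:**
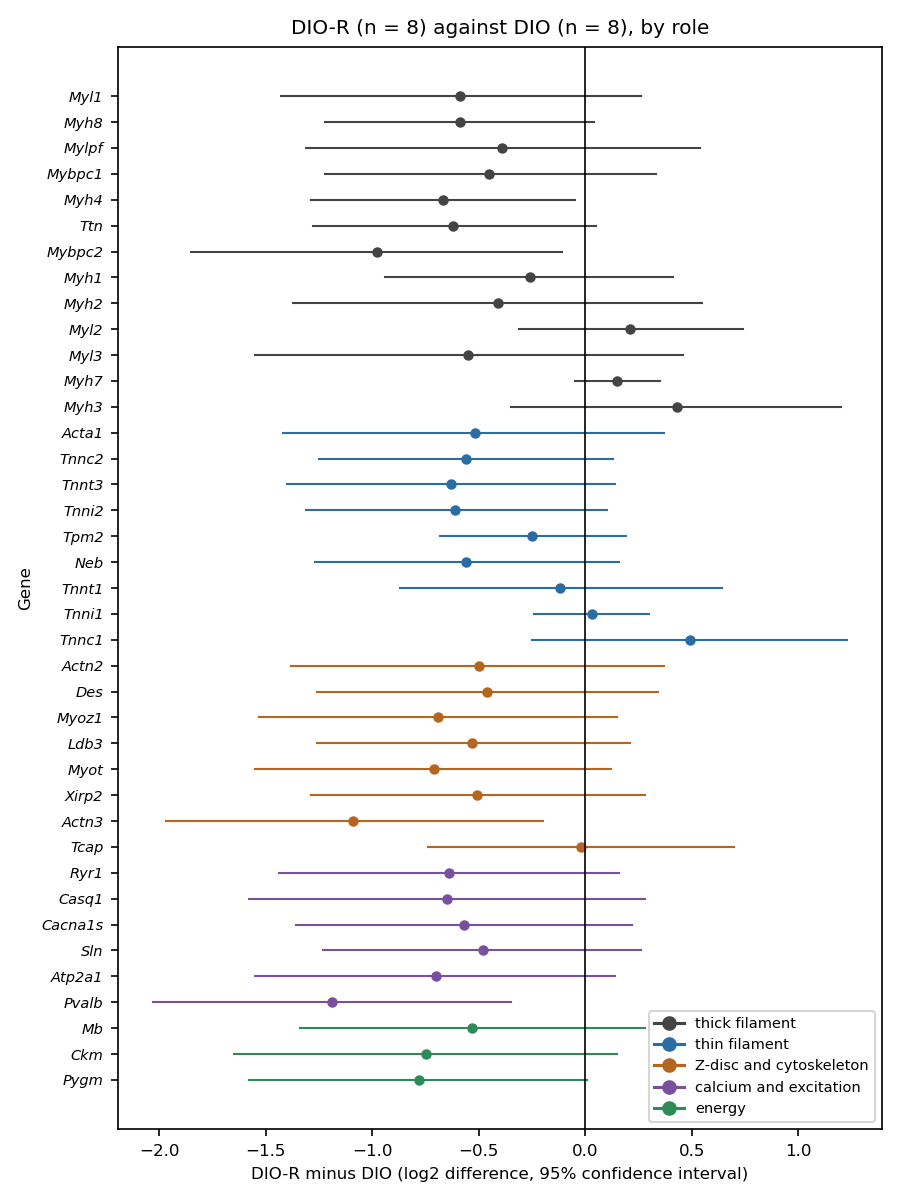
Log2 difference of DIO-R (n = 8) minus DIO (n = 8) for each contractile gene, with its 95% confidence interval from limma before adjustment, coloured by role. Of the 39 points 34 lie below 0, and the intervals of Pvalb, Actn3, Mybpc2 and Myh4 do not reach 0.

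Among the thick filament genes, Myh8, the perinatal heavy chain, ran from 7.66 through a median of 8.91 to 9.34 in Lean, from 8.08 through 8.75 to 9.24 in DIO and from 6.46 through 8.28 to 8.84 in DIO-R (probe at chr11:67121925-67121984, mm9). DIO-R reached lower than the other groups and overlapped both. The difference of DIO-R minus DIO was -0.59 ± 0.30 (SE, adjusted p = 0.53). Heavy chain genes are alike in sequence, and the Myh8 and Myh4 probes, which had a correlation of 0.99 over the arrays, share at most 24 of 60 bases at any offset without gaps. The match of the Myh8 probe to the rest of the Myh4 transcript was not examined, so binding of Myh4 RNA to it cannot be judged from this. A further Myh8 probe that was well above background on all 23 arrays had a correlation of 0.95 with the chosen one, and 1 that was so on 22 arrays had -0.42, so the level of Myh8 is uncertain.

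Myh4, the heavy chain of the fastest fibres, ran from 7.26 through 8.51 to 8.93 in Lean, from 7.65 through 8.43 to 8.91 in DIO and from 6.06 through 7.75 to 8.39 in DIO-R (chr11:67073834-67073893, mm9). Of the 8 DIO-R samples 6 lay below the DIO mean, and the groups overlapped. DIO-R minus DIO was -0.67 ± 0.30 (SE, adjusted p = 0.499), and DIO minus Lean was 0.03 ± 0.31. Myh7, the slow heavy chain, ran from -3.63 through -3.02 to -2.75 in Lean, from -3.33 through -3.14 to -3.02 in DIO and from -3.19 through -3.00 to -2.80 in DIO-R (chr14:55589581-55589640, mm9). Its range over all arrays was 0.88, and DIO-R minus DIO was 0.15 ± 0.10 (adjusted p = 0.591).

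The other thick filament genes were the fast heavy chains Myh1 and Myh2, the light chains Myl1, Mylpf and Myl2, the myosin binding proteins Mybpc1 and Mybpc2, the giant spring Ttn, and the embryonic heavy chain Myh3. Their differences of DIO-R minus DIO lay between -0.98 ± 0.42 (Mybpc2, lower in 7 of 8 samples, adjusted p = 0.492) and 0.43 ± 0.37 (Myh3). Their differences of DIO minus Lean lay between -0.36 (Myl2) and 0.63 (Myh2), with adjusted p of 0.748 and 0.768. Myl2 was well above background on 6 of 7 Lean, 3 of 8 DIO and 5 of 8 DIO-R arrays.

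Myl3, the essential light chain of slow fibres and of the heart's ventricle, stood apart from the rest. It ran from -1.61 (Lean 10) through a median of -0.06 to 1.41 (Lean 9) in Lean, from 1.50 (DIO 10) through 2.55 to 3.21 (DIO 7) in DIO and from 0.33 (DIO-R 10) through 1.75 to 4.16 (DIO-R 2) in DIO-R (chr9:110672238-110672297, mm9). Every DIO sample lay above every Lean sample, while DIO-R overlapped both. DIO minus Lean was 2.45 ± 0.50 (SE, n = 8 and 7), or 5.45-fold, and missed the threshold with an adjusted p of 0.0981.

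DIO-R minus Lean was 1.90 ± 0.50 for Myl3 (adjusted p = 0.179), with 8 of 8 DIO-R samples above the Lean mean, and DIO-R minus DIO was -0.55 ± 0.48 (adjusted p = 0.689). The difference of DIO minus Lean was positive on each slide, 1.33 on slide 1, 3.52 on slide 2 and 3.07 on slide 3. That of DIO-R minus Lean was 0.81, 2.34 and 2.99 on slides 1, 2 and 3. With the score of the other 38 genes as a covariate, DIO minus Lean was 2.45 ± 0.46 and passed with an adjusted p of 0.0348; over all the alternatives the adjusted p ran from 0.0348 to 1, and leaving out single arrays gave 0.0563 to 0.252. The fast fibre score as a covariate and array weights also brought it under the threshold, with adjusted p of 0.0484 and 0.0429.

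Myl3 is read by a single probe, so no other probe of the array bears on it. The other slow fibre genes, Tnnt1, Tnni1, Tnnc1, Myl2 and Myh7, differed between DIO and Lean by -0.30, -0.20, -0.50, -0.36 and -0.02, and the 8 heart muscle genes kept had a median of 0.02. None of these passed the test. Some lists of other cell types differed between the same groups without a call: 7 of 7 erythrocyte genes were higher in DIO (median 0.84, score of at most 0.23 in Lean and from -0.11 to 1.28 in DIO), as were 13 of 14 fibroblast genes (median 0.37), and 14 of 14 keratinocyte genes were lower (median -0.30). With the erythrocyte score as a covariate DIO minus Lean was 1.67 for Myl3 (adjusted p = 0.713), and DIO-R minus Lean was 1.90 (adjusted p = 0.135). The mean erythrocyte score was -0.28 in Lean, 0.53 in DIO and -0.28 in DIO-R. The part of the fibroblast and keratinocyte genes in the difference of Myl3 was not tested.

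**Figure D4:**
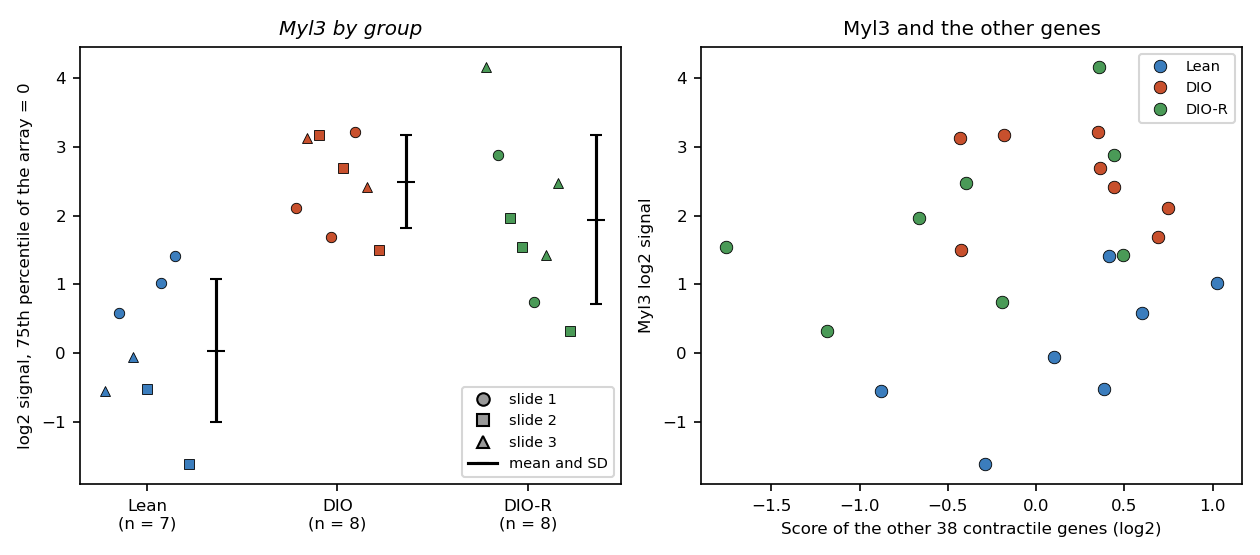
Log2 signal of Myl3 by group, with slides as point shapes and bars for mean and SD, and Myl3 on each array against the score of the other 38 contractile genes. All 8 DIO arrays (1.50 to 3.21) lie above all 7 Lean arrays (-1.61 to 1.41), and at similar scores the DIO arrays sit higher than the Lean arrays.

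Among the thin filament genes, Tnnc2 ran from 7.31 through 8.62 to 9.15 in Lean, from 7.72 through 8.59 to 9.02 in DIO and from 6.34 through 8.05 to 8.81 in DIO-R (chr2:164602661-164602720, mm9). Tnni2, the fast troponin that holds the filament off, ran from 6.98 through 8.42 to 8.92, from 7.42 through 8.26 to 8.68 and from 5.89 through 7.67 to 8.48 (chr7:149630251-149630310, mm9). In both, DIO-R 5 was the lowest of all arrays, and the groups overlapped. DIO-R minus DIO was -0.56 ± 0.33 for Tnnc2 (adjusted p = 0.564) and -0.61 ± 0.34 for Tnni2 (adjusted p = 0.548). The other fast troponin Tnnt3, the actin Acta1, the giant ruler protein Neb and tropomyosin Tpm2 differed by -0.63, -0.52, -0.56 and -0.25.

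The slow troponins had smaller or opposite differences, none past the threshold. Tnnt1, Tnni1 and Tnnc1 differed between DIO-R and DIO by -0.12, 0.03 and 0.49, with adjusted p of 0.916, 0.939 and 0.629. Tnnc1, which the heart also uses, was well above background on 5 of 7 Lean, 1 of 8 DIO and 6 of 8 DIO-R arrays, so its DIO values are mostly near background.

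In the Z-disc, which anchors the thin filaments, Tcap ran from 5.47 through 7.06 to 7.58 in Lean, from 6.12 through 7.05 to 7.26 in DIO and from 4.98 through 7.01 to 7.59 in DIO-R (chr11:98246127-98246186, mm9). Tcap, the cap of titin, had nearly equal group means and a difference of DIO-R minus DIO of -0.02 ± 0.34. Myot, which binds alpha-actinin and filamin, ran from 2.45 through 4.25 to 5.21, from 3.10 through 4.19 to 4.59 and from 1.33 through 3.38 to 4.21. DIO-R reached lower, with overlap, and DIO-R minus DIO was -0.71 ± 0.40 (adjusted p = 0.548).

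Actn3, the alpha-actinin of fast fibres, had the largest t among the contractile genes after Pvalb in DIO-R against DIO and after Myl3 in DIO-R against Lean, and is named for that. It ran from 0.09 through 1.06 to 2.05 in Lean, from -0.36 through 0.96 to 1.91 in DIO and from -1.88 through -0.04 to 1.12 in DIO-R. The groups overlapped, with 6 of 8 DIO-R samples below the DIO mean and 7 of 8 below the Lean mean. DIO-R minus DIO was -1.09 ± 0.42 (2.12-fold, adjusted p = 0.479) and DIO-R minus Lean -1.22 ± 0.44 (2.33-fold, adjusted p = 0.39), and on slide 3 these were 0.19 and 0.26. The other Z-disc and cytoskeletal genes, Actn2, Des, Myoz1, Ldb3 and Xirp2, differed between DIO-R and DIO by -0.69 (Myoz1) to -0.46 (Des).

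Of the calcium genes, Sln, a small inhibitor of the calcium pump, ran from 5.46 through 7.02 to 7.45 in Lean, from 5.92 through 6.75 to 7.27 in DIO and from 4.32 through 6.34 to 7.17 in DIO-R (chr9:53701574-53701633, mm9). Pvalb, the calcium buffer of fast fibres, ran from 3.75 through 4.88 to 5.50, from 3.84 through 5.00 to 5.81 and from 2.05 through 3.89 to 5.06 (chr15:78021951-78022010, mm9). Both overlapped between groups, and for Pvalb 7 of 8 DIO-R samples lay below the DIO mean. DIO-R minus DIO was -0.48 ± 0.36 for Sln and -1.19 ± 0.40 for Pvalb (2.28-fold, adjusted p = 0.448), the largest difference of the 39 in that comparison. A second probe of Pvalb gave -1.18. The pump Atp2a1, the release channel Ryr1, the store protein Casq1 and the voltage sensor Cacna1s differed by -0.70, -0.64, -0.65 and -0.57.

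Of the energy genes, Mb, which stores oxygen, ran from 4.80 through 6.57 to 7.18 in Lean, from 5.59 through 6.56 to 6.92 in DIO and from 3.99 through 5.94 to 6.90 in DIO-R (chr15:76846069-76846128, mm9). Ckm, the creatine kinase of muscle, ran from 3.65 through 5.55 to 6.26, from 4.05 through 5.32 to 5.94 and from 2.58 through 4.35 to 5.48. DIO-R 5 was again the lowest array and the groups overlapped. DIO-R minus DIO was -0.53 ± 0.39 for Mb, -0.75 ± 0.43 for Ckm and -0.78 ± 0.38 for Pygm, which breaks down glycogen (adjusted p = 0.633, 0.556 and 0.517).

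Further probes of the contractile genes gave like results where they were well above background on every array. This level was reached by 15 of 19 other probes. Of these, 14 had a correlation of 0.9 or more with the chosen probe, and all 15 had the same sign of DIO-R minus DIO as it. The rest followed the chosen probe less. The correlation was 0.59 for Actn2 (well above background on 21 arrays), -0.42 (22 arrays) and 0.36 (0 arrays) for Myh8, and -0.06 for Myl2 (5 arrays). For Myl2 that probe gave a DIO-R minus DIO of -0.16, against 0.21 by the chosen one, so its sign is uncertain.

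Pdk4, which encodes a kinase that shuts down pyruvate oxidation and is made in muscle, heart and fat, moved with the contractile genes inside each group. It ran from 4.09 (Lean 3) through 5.31 to 6.65 (Lean 7) in Lean, from 4.61 (DIO 10) through 5.70 to 6.28 (DIO 1) in DIO and from 1.09 (DIO-R 5) through 2.83 to 4.28 (DIO-R 7) in DIO-R. No DIO-R sample overlapped DIO, and 1 Lean sample, Lean 3, fell inside the DIO-R range. The Pearson correlation of Pdk4 with the contractile score was 0.96 in Lean (Spearman 0.96), 0.98 in DIO (1.00) and 0.97 in DIO-R (0.98), over 7, 8 and 8 arrays, and 0.95, 0.95 and 0.97 without the 2 arrays farthest from the median score. The arrays share their scaling and the RNA on them.

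The lines of Pdk4 on the score had slopes of 1.19 ± 0.15 (SE) in Lean, 1.38 ± 0.11 in DIO and 1.40 ± 0.15 in DIO-R. At a score of 0 they stood at 5.16, 5.31 and 3.19. A common slope of 1.34 ± 0.08 took the residual SD of Pdk4 within groups from 0.91 to 0.24. Pdk4 against the fast fibre score alone had correlations of 0.95, 0.98 and 0.97, and against the slow fibre score 0.92, 0.52 and 0.81, or 0.62, 0.69 and 0.85 with Myl3 left out of that score.

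Gene by gene, in a limma fit of each gene on the level of Pdk4 with a mean per group, 33 of the 39 contractile genes rose with Pdk4 at an adjusted p under 0.05 and none fell. Of all genes tested, 5.53% rose and 2.21% fell. The median slope of the 39 was 0.81 log2 units per log2 unit of Pdk4, beside -0.03 over all genes. All 13 fast fibre genes passed, with slopes from 0.63 to 0.98, while of the 6 slow fibre genes Tnnt1 did (0.71 ± 0.09). By role, 9 of 13 thick filament, 7 of 9 thin filament, 8 of 8 Z-disc, 6 of 6 calcium and 3 of 3 energy genes passed. The 6 that did not were Myh3 (-0.41 ± 0.16), Myh7 (-0.08 ± 0.04), Tnni1 (0.14 ± 0.06), Myl2 (0.21 ± 0.12), Tnnc1 (0.40 ± 0.15) and Myl3 (0.43 ± 0.22). Rising with Pdk4 was not particular to muscle genes. In the same fit 8 of 13 adipocyte genes (median slope 0.62), 3 of 7 von Ebner gland genes (1.07) and 2 of 10 smooth muscle genes (0.25) rose, and 1 of 8 heart genes. None of the fibroblast, endothelium, erythrocyte, keratinocyte, nerve or taste cell genes passed.

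Angptl4, which encodes a secreted inhibitor of lipoprotein lipase, is induced by the same fatty acid receptors as Pdk4 and showed a weak correlation with the contractile genes. It ran from 3.76 (Lean 9) through 4.42 to 5.07 (Lean 7) in Lean, from 4.03 through 4.54 to 4.80 in DIO and from 1.90 (DIO-R 6) through 2.57 to 3.21 (DIO-R 7) in DIO-R, and every DIO-R sample lay below every sample of the other groups. Its correlation with the contractile score was 0.40 in Lean (Spearman 0.46), -0.23 in DIO (-0.38) and 0.12 in DIO-R (0.00), and 0.59, 0.46 and 0.39 without the 2 farthest arrays. The common slope was 0.08 ± 0.12, and the residual SD was 0.35 with or without it. In the gene by gene fit on Angptl4, 0 of 39 contractile genes passed by limma, where 3.35% of all genes did; 1 of 39, Myh7, was under an unadjusted p of 0.05 (slope -0.29 ± 0.11, adjusted p = 0.173). The median slope of the 39 on Angptl4 was 0.29, beside -0.05 over all genes. These slopes were less precise than those on Pdk4. For Acta1 the slope was 0.40 ± 0.56 on Angptl4 and 0.94 ± 0.06 on Pdk4, so the fit on Angptl4 could not tell a slope of 0 from one like that on Pdk4. Whether the slopes on Pdk4 and on Angptl4 differ was not tested.

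**Figure D5:**
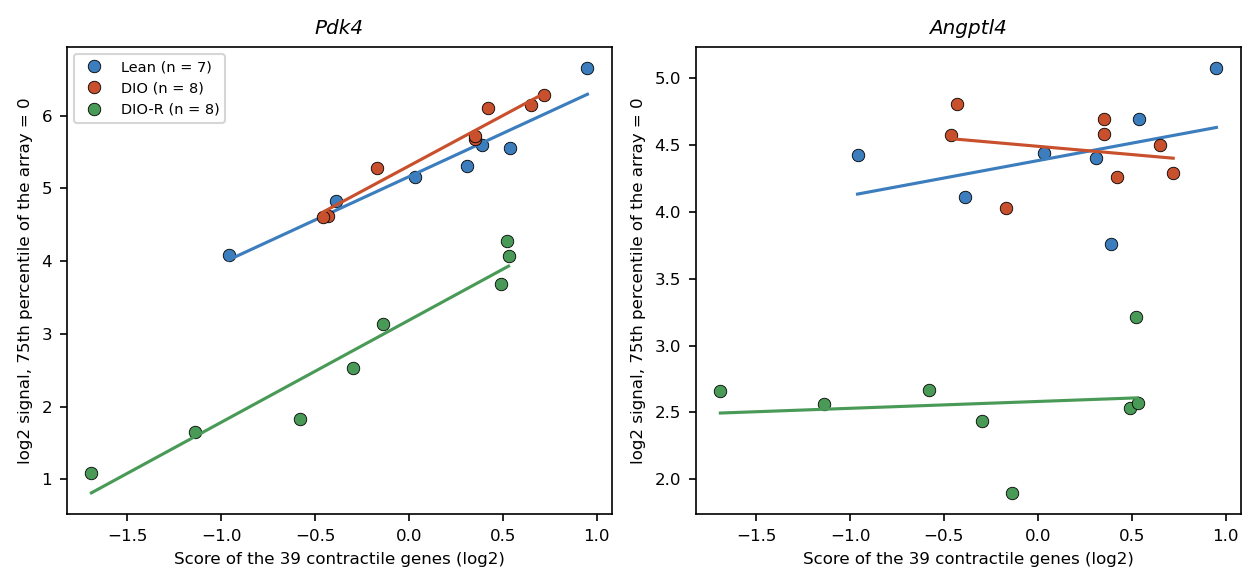
Log2 signal of Pdk4 and of Angptl4 on each array against the score of the 39 contractile genes, with a least squares line for each diet group. Pdk4 climbs with the score in each group (slopes 1.19, 1.38 and 1.40) and DIO-R lies lower throughout, while the Angptl4 lines have slopes of 0.26, -0.12 and 0.05.

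Both genes were lower in DIO-R than in DIO whether or not the score was in the fit. Pdk4 fell in DIO-R against DIO by 2.77 ± 0.44 on the log2 scale (6.82-fold, adjusted p = 0.00647), and with the contractile score as a covariate by 2.15 ± 0.13 (4.42-fold, adjusted p = 2.59e-09; 2.59e-09 to 0.872 over all the alternatives). Against Lean it fell by 2.53 ± 0.45 without the score (adjusted p = 0.0155) and by 1.98 ± 0.13 with it (adjusted p = 1.95e-08; 1.95e-08 to 0.53 over the alternatives). Angptl4 fell in DIO-R against DIO by 1.90 ± 0.17 (3.72-fold, adjusted p = 4.12e-06), and by 1.86 ± 0.18 with the score (adjusted p = 1e-05; 1.23e-06 to 0.1 over the alternatives). Within slides 1, 2 and 3, Pdk4 differed between DIO-R and DIO by -2.45, -3.66 and -1.86, and Angptl4 by -2.22, -1.80 and -1.80.

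Genes of fat cells and of red blood cells bear on the same comparison. Of the adipocyte genes 13 of 14 were kept, the exception being Acvr1c, and none of them passed the test in DIO-R against DIO, where 12 of 13 were lower (median -0.76). Their score ran from -0.96 to 1.32 in Lean, -0.73 to 1.21 in DIO and -1.75 to 0.57 in DIO-R, and its correlation with the contractile score over the 23 arrays, each minus its group mean, was 0.90. With group differences included it was 0.89. Single adipocyte genes, also with group differences included, had correlations from -0.17 (Lep) and 0.14 (Adrb3) to 0.87 (Adipoq) and 0.95 (Lpl). How much of the adipocyte score is RNA of muscle was not tested. With the adipocyte score in the fit Pdk4 differed between DIO-R and DIO by -1.82 ± 0.21, and with both scores by -2.03 ± 0.13 (adjusted p = 0.000131 and 3.49e-08). Erythrocyte genes were lower in DIO-R than in DIO too, 7 of 7 with a median of -0.98 and none past the threshold (score from -0.11 to 1.28 in DIO and -1.04 to 0.35 in DIO-R). With the erythrocyte score alone in the fit Pdk4 differed by -2.14 ± 0.55 and did not pass (adjusted p = 0.872), while with the contractile and erythrocyte scores together it fell by 2.13 ± 0.16 (adjusted p = 6.81e-07).

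Against the contractile score, each minus its group mean, the correlation was 0.66 for smooth muscle genes and 0.65 for von Ebner gland genes (0.39 without the 2 farthest arrays). It was 0.37 for erythrocyte, 0.15 for fibroblast, 0.04 for heart, -0.31 for keratinocyte and -0.50 for taste cell genes. In papilla tissue cut out after the epithelium was loosened, a change in the amount of muscle on the array and a change in its RNA per cell cannot be told apart.

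Other muscle genes, in lists drawn up by function, went the same way as the contractile genes. In DIO-R against DIO, 20 of 24 further sarcomere genes were lower (median -0.55), as were 22 of 24 genes of the triad and muscle membrane (-0.43), 19 of 20 of muscle metabolism (-0.57) and 19 of 23 kept regulator and precursor genes (-0.15), and none of them passed the test. With Pdk4, 21 of 24, 21 of 24, 17 of 20 and 12 of 23 of them rose. The median correlation with the contractile score was 0.95, 0.94, 0.98 and 0.67 in these lists, and 15 of 24, 13 of 24, 16 of 20 and 5 of 23 genes were above 0.9. Among the highest of the first 3 lists, it was 0.99 for Tpm1, a tropomyosin, 0.99 for Trdn, which ties the release channel to its store, 0.99 for Eno3, the muscle enolase, while the lowest of each list were -0.53 for Tpm3, 0.21 for Asph and -0.50 for Pgam1. Of the regulator and precursor genes, it was 0.91 for Cdh15, a cadherin of muscle precursors, but -0.15 for Pax7, the marker of satellite cells, and 0.32 for Myod1.

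Outside all lists, the 10 genes most like the contractile score over the 23 arrays were Rpl3l (0.995), Tmem38a (0.992), Slc25a4 (0.99), Stxbp4 and Fitm1 (0.989 each), Adssl1 (0.988), Txlnb and Hspb6 (0.987 each), and Ak1 and Eef1a2 (0.986 each). Rpl3l encodes a ribosomal protein of striated muscle, Tmem38a a potassium channel of the sarcoplasmic reticulum and Slc25a4 a mitochondrial carrier of adenine nucleotides. Their differences of DIO-R minus DIO lay between -0.83 (Stxbp4) and -0.44 (Tmem38a), and their slopes on Pdk4 between 0.69 ± 0.03 (Slc25a4) and 1.07 ± 0.06 (Stxbp4).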

How the data were processed

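The authors deposited a scanner file for each array and a table of log2 values. Per the file headers, the intensity of each spot came from Agilent Feature Extraction 10.10.1.1, which corrects background array by array with no step that equalises arrays; the submitters' processing notes also name limma, and how the deposited log2 table was normalized is not given in the sources used here. From the intensity, log2 minus the array's 75th percentile over spots that are not controls was computed; outlier spots were left out and spots of a probe averaged. Between 66.9% and 78.4% of an array's probes were well above background and 0 spots were saturated; the number of arrays limits the precision.

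Gene names follow the array's design, updated by RefSeq accession (20660 matched, 2168 changed) other than for the 39 genes. Differences and slopes were tested two-sided with limma 3.58.1 (lmFit, eBayes) in R 4.3.3 on all 23 arrays with a mean per group, Benjamini-Hochberg adjusted over all genes kept, with jsonlite 2.0.0, data.table (1.17.8), Python 3.11.15, pandas 2.3.3 and matplotlib 3.10.9. The fits were first run on simulated data with known changes.

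The genes, lists and tests were chosen with earlier results of these data known. Given in full are, by rule, the 2 genes of highest mean signal in each role, the largest t of each comparison, Myh4, Myh7 and any gene past the threshold, and outside the members Pdk4, Angptl4, the 10 genes most like the score and any past the threshold in the other muscle lists; Actn3 was added after its values were seen, and so were examples from the other lists. The fast list is Actn3, Myh1, Myh2, Myh4, Myl1, Mylpf, Tnnc2, Tnni2, Tnnt3, Mybpc2, Pvalb, Atp2a1 and Myoz1. Alternatives were normexp background (offset 50), quantile normalization, the authors' table, no filter, the mean of probes, slide as a block, each slide alone, a replicate block, 2 groups alone, array weights, each array left out and covariates.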

Additional observations from a re-analysis of the deposited data

Results flagged for a closer look

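Of 132 sets of values (a gene or score in a group), 1 had a sample far from the others: Myh3, the embryonic heavy chain, stood at -1.66 in DIO-R 5, with the next DIO-R sample at -2.93, a gap of 0.69 of the group's range. Chance alone puts about 1 in 20 such sets past this limit. DIO-R 5 was also the array with the lowest contractile score (-1.69).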

How the results depend on the processing

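No contractile gene passed in any comparison under the alternatives run over all 39 genes, except Myl3 in DIO against Lean, 1 gene called with array weights (2.58), an alternative planned for the count of genes called. It also passed with the fast fibre score (2.42) or the score of the other genes (2.45) as a covariate, both chosen after seeing the data. The count of contractile genes that rose with Pdk4 lay between 31 and 34, and 0 passed with Angptl4.

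The medians depended on the slide. DIO-R minus Lean was -1.34 for the 39 genes, -1.52 for the fast, -0.51 for the slow and -3.54 for Pdk4 within slide 2, and 0.68, 0.65 for the fast and -1.12 for Pdk4 within slide 3; DIO-R minus DIO was -0.34 for the slow genes within slide 2 and 0.25 and 0.22 for all and the fast within slide 3. Angptl4 was -2.27 in DIO-R against Lean within slide 1. The cause was not tested. A slide holds 2 or 3 arrays of a group, so these values have no test.

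Replicate numbers are shared by 5, 7 and 6 pairs in the 3 comparisons, with median correlations of deviations of 0.01, -0.06 and -0.06. Single pairs ran from -0.24 to 0.32, from -0.21 to 0.16 and from -0.37 to 0.33. So few pairs cannot decide whether the numbers pair samples, and the labels do not say. With the replicate block, on fewer arrays, Pdk4 was -2.53 against DIO (adjusted p = 0.767) and -2.59 against Lean (0.53), Angptl4 -1.94 (0.1) and -1.93 (0.0598), all past the threshold no longer; DIO minus Lean became -0.01 for Angptl4 and 0.15 for Actn3. The same arrays without the block gave -2.53 (0.197) and -2.59 (0.297) for Pdk4. Angptl4 still passed there, at -1.94 (0.000537) and -1.93 (0.00562), so its calls ended when the block was added on these few arrays. DIO minus Lean was again -0.01 for Angptl4 and 0.15 for Actn3. The erythrocyte score as a covariate gave, in DIO against Lean, -0.39 for Pdk4 and -0.11 for Angptl4 (-0.10 with the muscle score added), and in DIO-R against DIO -2.14 for Pdk4, no longer past the threshold, and 0.23 for Myl3. With only the 2 groups compared, Pdk4 in DIO-R against Lean was -2.53 (0.0974).

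Leaving out single arrays gave -0.06 (without Lean 9) to 0.16 for Angptl4 and -0.30 to 0.06 for Actn3 in DIO against Lean, with 0.01 without Lean 7, 0.03 without Lean 4 and 0.06 without DIO 2. The median of the 39 genes ran from -0.68 to -0.33 in DIO-R against DIO, from -0.74 to -0.26 in DIO-R against Lean and from -0.19 to 0.13 in DIO against Lean. Pdk4 and Angptl4 passed in both DIO-R comparisons each time. The authors' table holds 38 of the 39 genes, without Tnnc1. Dim probes (Myl2 and Tnnc1, and to a lesser degree Myh7 and Tnni1) limit the slow fibre list.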
